A study of Rattus norvegicus with 15 samples.

Results

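The 100 most abundant transcripts of the rat abdominal aorta were described across 15 libraries of total RNA depleted of ribosomal RNA. They are the 100 IDs with the highest mean of the 3 group medians, out of 39097 IDs listed for all libraries. Normotensive Wistar Kyoto rats (WKY) and spontaneously hypertensive rats (SHR) received double distilled water for 10 weeks. A further group of the hypertensive strain (SHR+Nef) received neferine, a plant alkaloid found in lotus, at 10 mg/kg per day over the same 10 weeks. Each group had 5 libraries, and the sources used here give no age or sex.

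In a total RNA library, a small number of transcripts usually takes a large part of the signal. In the wall of a large artery these are known to include mitochondrial messages, which are made in high copy, messages for ribosomal proteins, and messages for the contractile and matrix proteins of smooth muscle. RNA of other cells that stay with the tissue, such as red blood cells or perivascular fat, can be abundant too and varies with dissection and flushing. Each transcript has either a rat ID of Ensembl or a MERGE code, made of an assembled locus and an isoform number, and no gene name stands beside it. Of the 100 IDs, 0 matched the gene table at hand, so which of these classes each transcript belongs to was not analysed here, nor were markers of the labelled tissue.

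Of the 100 transcripts, 89 carried Ensembl IDs and 11 were assembled isoforms. Assembled isoforms made up 11% of the first 100, 22.2% of the next 900, 42.7% of the 9000 after those and 74.4% of the remainder. Among the first 10 there were 0. The share of assembled isoforms thus grew from each of these rank classes to the next lower one, and over all 39097 IDs it was 65.8%.

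The level that chose the transcripts ran from 12926 for ENSRNOT00000050156, the first, to 578 for the last, on the authors' abundance scale, which the sources used here do not name. The boundary is not a gap. ENSRNOT00000067875 and ENSRNOT00000029791, ranked 99 and 100, stood at 588 and 578. ENSRNOT00000047450 and ENSRNOT00000024678, the first 2 IDs outside, stood at 575 and 571. Leaving out IDs that some tables do not list cost nothing at this level, since the highest group median among the 2774 listed for WKY and SHR only was 21.1 and among the 2065 listed for SHR+Nef only was 25.8. All 100 passed the filter used for testing, 5 or more libraries with a value of 1 or above.

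The 100 transcripts are 0.256% of the IDs listed for all libraries and held 32.5% to 46.8% of each library's summed abundance. In WKY their share was 46.8%, 40.3%, 38.0%, 39.2% and 37.3% in replicates 1 to 5. In SHR the replicates 1 to 5 stood at 37.6%, 37.2%, 35.0%, 42.3% and 36.5%. In SHR+Nef the replicates 1, 2, 4, 5 and 6 stood at 35.4%, 34.6%, 33.95%, 32.5% and 37.8%.

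The WKY mean was 40.3% ± 3.80, the SHR mean 37.7% ± 2.74 and the SHR+Nef mean 34.8% ± 1.95 (SD over 5 libraries each). The ranges of the 3 groups overlapped, and the labels do not say outright that the libraries come from separate animals, so spread and p-values here describe these samples and may be partly technical. Between SHR+Nef and WKY the overlap came from 1 library on each side, SHR+Nef replicate 6 at 37.8% above WKY replicate 5 at 37.3%. Without WKY replicate 1 the WKY mean was 38.7% ± 1.32, and without SHR replicate 4 the SHR mean was 36.6% ± 1.17 (SD, n = 4 each). These shares sum transcripts that were picked for their level, so they carry no test.

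The other transcripts summed to 318059 to 373064 in the 14 libraries other than SHR replicate 4, and to 430963 in that one. The abundance held by the 100 varied more, from 171608 in SHR+Nef replicate 5 to 315311 in SHR replicate 4. Counting down from the most abundant ID of each library, 50% of the sum was reached with 130 IDs in WKY replicate 1 and 150 in SHR replicate 4, whereas the 13 remaining libraries needed 215 to 398. The first 10 transcripts alone held 26.6% in WKY replicate 1 and 11.1% to 18.3% in the other 14 libraries.

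**Figure D1:**
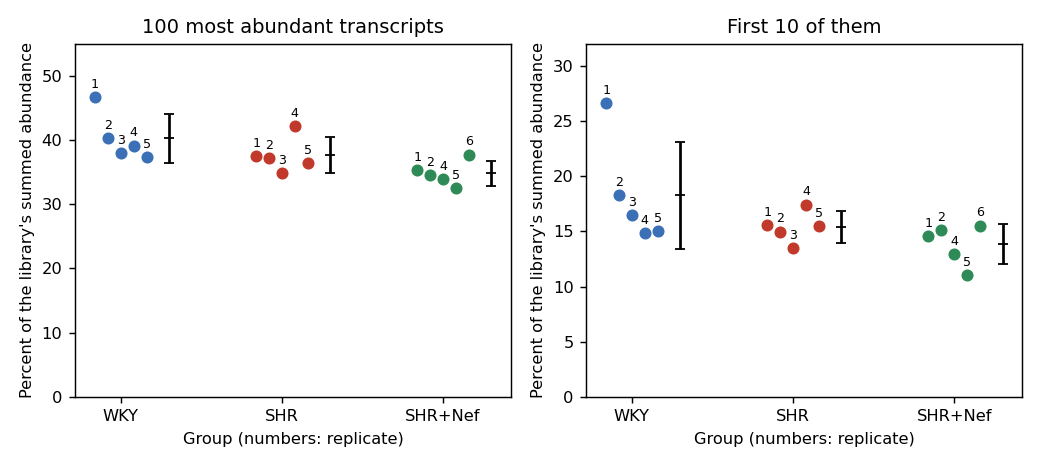
Percent of each library's summed abundance held by the 100 most abundant transcripts (left) and by the first 10 of them (right), by group. Points are libraries numbered by replicate, the bar beside each group is the mean with 1 SD (n = 5), and WKY replicate 1 lies highest in both panels, at 46.8% and 26.6%.

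A pair of libraries stood apart among these transcripts. SHR replicate 4 had the highest value of all 15 libraries for 49 of the 100, and WKY replicate 1 for 15. The same library, SHR replicate 4, was highest for 45.2% of the next 900 transcripts and for 17.3% of all IDs listed everywhere, and 9902 of its 41871 IDs were listed at 0 against 3218 to 4637 in the other libraries. Its own 100 most abundant IDs shared 78 with the 100 described here, and those of the other 14 libraries shared 87 to 92. Results on SHR are therefore also given without it.

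Ranks by group median, the values the rule used, describe the order in each group. Of the 100, 62 stayed within 10 rank places over the 3 group medians, and the median of the largest rank difference was 8 places. By contrast, 9 were over 50 places apart, and 15 lay outside the own first 100 of at least 1 group. The groups' own lists of 100 shared 92 IDs between SHR and WKY (92% of either list), 93 between SHR+Nef and SHR, 89 between SHR+Nef and WKY, and 86 among all 3. In every one of the 15 libraries, 56 of the 100 were among the library's own first 100.

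ENSRNOT00000050156 was number 3 in WKY, number 2 in SHR and number 1 in SHR+Nef. Its values in WKY replicates 1 to 5 were 32170, 17745, 9177, 9686 and 11415. In SHR replicates 1 to 5 they were 15946, 13388, 11868, 19426 and 13905, and in SHR+Nef replicates 1, 2, 4, 5 and 6 they were 13541, 15102, 11620, 10317 and 13457. WKY replicate 1 was 1.81 times the next WKY library, and the 3 groups overlapped widely. ENSRNOT00000049683, second by the rule at 12841, was at 9431 to 29687 in WKY, 11275 to 24918 in SHR and, in SHR+Nef, 8629 to 13405. The 2 could not be ranked apart, since their ratio lay between 0.78 in SHR replicate 4 and 1.20 in SHR+Nef replicate 5, with a median of 1.05.

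The third, ENSRNOT00000046201, stood at 9601 by the rule and ran from 9053 to 26855 in WKY, 8369 to 11043 in SHR and, in SHR+Nef, 7190 to 9391. The fourth, ENSRNOT00000090422, stood at 9267 and behaved differently from its neighbours: it was first in WKY, ninth in SHR and 27th in SHR+Nef by group median. The next 6 by the rule were ENSRNOT00000042098 at 7621, ENSRNOT00000043693 at 7132, ENSRNOT00000024030 at 6778, ENSRNOT00000047550 at 6155, ENSRNOT00000007577 at 5259 and ENSRNOT00000040993 at 5025. Each of these 6 lay at or between rank 4 and rank 11 in all 3 groups. Neighbours in this order had overlapping ranges in all 3 groups, except that ENSRNOT00000049683 lay above ENSRNOT00000046201 in every SHR library. Levels of different transcripts are compared here on the deposited scale, and the sources used here do not say whether it corrects for length.

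Most of the 100 could be grouped into sets of similar pattern across libraries. The measure was the SD over 15 libraries of the log2 ratio of 2 transcripts, with average linkage up to 0.4, a limit chosen after the data were seen. Since the sets are built from the values, their members' likeness is a description and has no test, and all transcripts of a library share that library's depth and composition. Of 4950 pairs, the median SD of the log2 ratio was 0.50, and 38 pairs lay under 0.1. In the closest pair, ENSRNOT00000005471 against ENSRNOT00000083427, the ratio was 1.07 to 1.26 in all 15 libraries. Sets of 3 or more held 79 of the 100, in 5 sets, another 10 stood in pairs, and 11 stood alone. Likeness within a set was partial: the ratio of ENSRNOT00000050156 to ENSRNOT00000046201, of 1 set, was 1.00 to 2.28, and that of ENSRNOT00000024030 to ENSRNOT00000007577, both in the largest set, was 0.75 to 1.68.

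**Figure D2:**
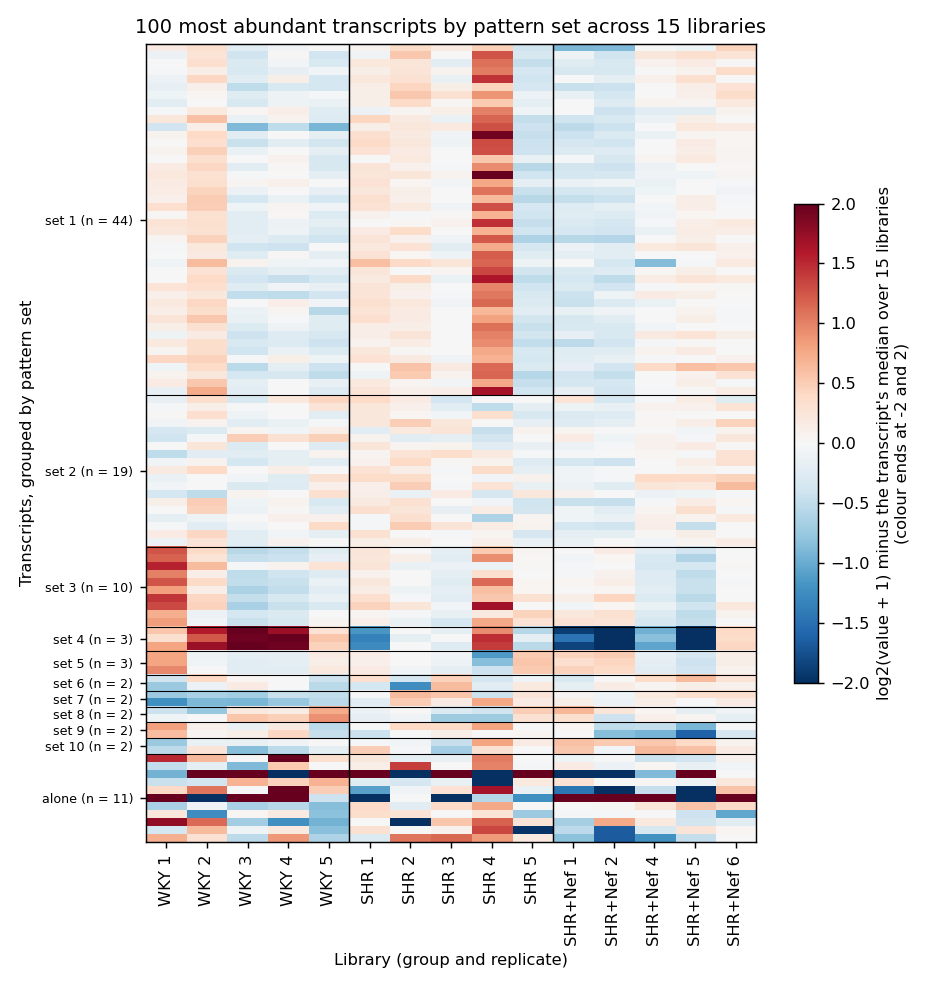
Each row is 1 of the 100 transcripts, grouped by pattern set, and each column a library. Colour is log2(value + 1) minus the transcript's median over 15 libraries, and the set of 44 is most red (high) in SHR replicate 4, the set of 10 in WKY replicate 1, and the set of 3 with ENSRNOT00000090422 runs from high in WKY to low in SHR+Nef.

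The largest set had 44 transcripts, 43 with Ensembl IDs, ranked from 7 to 100, with ENSRNOT00000024030 and ENSRNOT00000007577 at its head. All 44 had their highest value in SHR replicate 4. With that library set aside, 29 of the 44 were highest in WKY replicate 2. ENSRNOT00000007577 stood at 12190 in SHR replicate 4, at 4063 to 7386 in the other SHR libraries, at 3881 to 6180 in WKY and at 3866 to 6366 in SHR+Nef. The set held 16.5% of the sum of SHR replicate 4, while the other libraries gave it 9.14% to 12.7%. The median SD of log2(value + 1) within groups was 0.37 over the set, and 0.26 without SHR replicate 4.

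None of the 44 passed the test in any of the 3 comparisons (limma, smallest adjusted p = 0.31). The median log2 difference over the set was 0.23 for SHR against WKY and -0.31 for SHR+Nef against SHR, comparisons that share the SHR libraries. Over all transcripts tested these medians were -0.03 and 0.06. Without SHR replicate 4 the medians of the set were 0.01 and -0.09, against 0.03 and 0.0015 over all tested. For SHR+Nef against WKY the median of the set was -0.09, against 0.03 over all tested. It was -0.14 with median scaling, against -0.001, and -0.09 with scaling to the sum of the other transcripts, against 0.03. With quantile normalization it was 0.02, against -0.015. Quantile normalization gives every library the same distribution of values, so it largely removes a shift shared by the most abundant transcripts.

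The second set had 19 transcripts, 5 of them assembled, ranked from 13 to 97, and held the steadiest of the 100. Their SD within groups was 0.14 to 0.29 on the log2 scale, and none of the 19 had its highest value in SHR replicate 4. The median SD was 0.22 both with and without that library, against 0.37 and 0.26 in the largest set. With all 15 libraries, ENSRNOT00000025093 varied least of the 100, with values of 532, 688, 492, 616 and 574 in WKY replicates 1 to 5. In SHR replicates 1 to 5 it was at 624, 630.2, 575, 619 and 529, and in SHR+Nef replicates 1, 2, 4, 5 and 6 at 524, 578, 554, 597 and 639. The groups overlapped throughout. The next steadiest was ENSRNOT00000016329, of the same set, at 899 to 1186 in WKY, 799 to 1170 in SHR and, in SHR+Nef, 849 to 936. Without SHR replicate 4 this order changed. The SD was then 0.133 for the transcript of rank 51, of the largest set, 0.140 for that of rank 88 and 0.144 for ENSRNOT00000025093.

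The third set held 10 Ensembl transcripts, among them 7 of the first 10, and was highest in WKY replicate 1 for 9 of the 10. It made up 24.9% of that library's sum and 9.32% to 14.8% of the other 14. Its mean share was 13.98% ± 6.38 for WKY, 13.1% ± 1.52 for SHR and 12.2% ± 2.20 for SHR+Nef (SD over 5 libraries each). Without WKY replicate 1 the WKY mean was 11.3% ± 2.12 (n = 4), below both others, so the order of the means rests on that library. The groups overlapped, and none of the 10 passed in any comparison (limma, smallest adjusted p = 0.36). ENSRNOT00000042098 followed ENSRNOT00000050156 closely, at a ratio of 1.58 to 2.0 over the 15 libraries, although the highest library was 2.88 times the lowest for the former and 3.51 times for the latter. A smaller set of 3 transcripts also had all its highest values in WKY replicate 1.

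The fourth set held ENSRNOT00000090422, ENSRNOT00000051483 and ENSRNOT00000090745 and these ranked 4, 12 and 53. ENSRNOT00000090422 stood at 9849, 20125, 32126, 22050 and 8187 in WKY replicates 1 to 5. In SHR replicates 1 to 5 it stood at 2993, 6724, 5866, 12879 and 4509. In SHR+Nef replicates 1, 2, 4, 5 and 6 it stood at 1809, 226, 3472, 702 and 8832.

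Values were mostly highest in WKY and lowest in SHR+Nef, with SHR replicate 4 and SHR+Nef replicate 6 reaching into the WKY range. Over all libraries this transcript varied 142-fold, yet its ratio to ENSRNOT00000090745 stayed between 7.41 and 11.04, and its ratio to ENSRNOT00000051483 between 1.28 and 2.36. The 3 together held 2.44% to 9.33% of the sum in WKY, 0.83% to 3.31% in SHR and, in SHR+Nef, 0.085% to 2.59%. Without SHR replicate 4 the SHR maximum was 1.86%, under the lowest WKY library, and without SHR+Nef replicate 6 the SHR+Nef maximum was 1.11%. Each of these libraries was the highest of its group for this set, and with all 15 libraries both ranges overlapped that of WKY. In bulk tissue, fewer cells of a type and less RNA per cell cannot be told apart.

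Between SHR and WKY, the question was which of the most abundant aortic transcripts differ between the hypertensive and the normotensive strain. Of the 100, 3 passed the test and all 3 were higher in SHR (limma, adjusted p under 0.05), where 1.53% of the 29204 transcripts tested passed in either direction and 0.705% passed as higher. In WKY, 2 of the 3 had medians under 578, the level of the last of the 100: 493 for the transcript of rank 69, which was outside the first 100 there at rank 113, and 556 for that of rank 56, which ranked 96 there. Their place among the 100 rests on the groups where they are higher, the direction of the call, so the count is a description and supports nothing about the 100 as a class. ENSRNOT00000024253, ranked 56, was the clearest. Its values in WKY replicates 1 to 5 were 442, 556, 548, 610.3 and 714, and in SHR replicates 1 to 5 they were 883, 1472, 1163, 1778 and 1161. All 5 SHR libraries lay above all 5 WKY libraries. WKY averaged 574 ± 99.3 and SHR 1292 ± 343 (SD over 5 libraries each), which is 1.15 ± 0.17 on the log2 scale (standard error, limma adjusted p = 0.0018). The call held in all 25 alternative settings, with log2 differences from 1.00 to 1.27, and without SHR replicate 4 it was 1.02 (limma, adjusted p = 0.0025).

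ENSRNOT00000020357, ranked 28, formed a pattern pair with it. It was at 1059, 1127, 1090, 1296 and 1254 in WKY and at 1762, 2724, 2575, 1310.3 and 2106 in SHR, replicates 1 to 5 in each case. The groups did not overlap, but SHR replicate 4 lay just above the highest WKY library. The log2 difference was 0.80 (standard error 0.17; limma, adjusted p = 0.03), and without SHR replicate 4 it was 0.96 (limma, adjusted p = 0.0015). The call ended in 13 of the 25 alternatives, among them without each WKY library in turn and without SHR replicate 2, 3 or 5.

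The remaining call was the transcript of rank 69, at 428 to 731 in WKY and 666 to 1311 in SHR, so that the groups overlapped. Its log2 difference was 0.82 (standard error 0.19; limma, adjusted p = 0.046), and the call ended in 16 of 25 alternatives. These include leaving out SHR replicate 4 (limma, adjusted p = 0.083), WKY replicate 1, 3, 4 or 5, SHR replicate 1 or 3, and, among the SHR+Nef libraries, replicate 1, 2, 4 or 6. It falls outside the rule for named transcripts and is given because the calls are so few.

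The 2 groups did not overlap for 2 of the 100, against 2.93% of all transcripts tested. With SHR replicate 4 left out they did not overlap for 5, against 4.4% of all tested (1.85% lower). The 3 added ones are those of ranks 4, 12 and 53, the fourth set, all lower in SHR, with log2 differences of -1.76, -1.64 and -2.003 that did not pass (limma, smallest adjusted p = 0.41). That of rank 53, with medians of 2175 in WKY and 552 in SHR, is among the 100 only through WKY. The transcript of rank 56, already without overlap, had a WKY median of 556, under the 578 of the last of the 100. Both counts are thus a description and support nothing about the 100 as a class. Taking all 100, the median absolute difference was 0.22 log2 units against 0.26 over all transcripts tested, and 94 of the 100 differed by less than 1 unit. The difference was above 0 for 76 of the 100 and its median was 0.14, against -0.03 over all tested. Without SHR replicate 4 it was above 0 for 53, with a median of 0.01 against 0.03 over all tested. With median scaling it was above 0 for 83, with a median of 0.21 against 0.009. Scaling to the sum of the other transcripts gave 61, with a median of 0.04 against -0.097. Quantile normalization, which largely removes a shared shift, gave 56, with a median of 0.04 against -0.017. The median over all tested thus moved with the setting too.

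**Figure D3:**
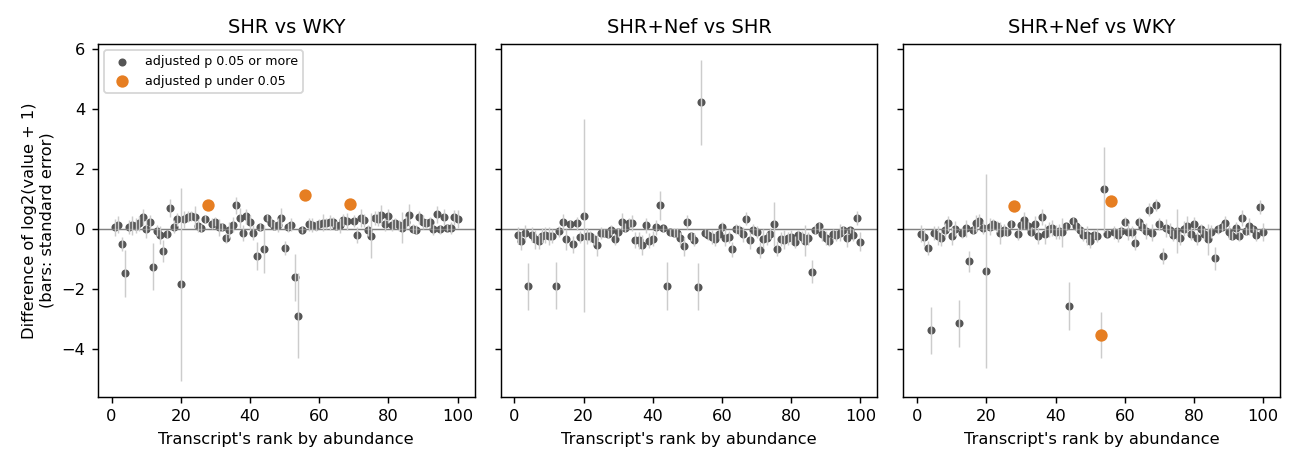
Difference of log2(value + 1) for each of the 100 transcripts against its abundance rank, in 3 comparisons, with the standard error from limma as bars. Orange points have an adjusted p under 0.05, 3 in SHR vs WKY, 0 in SHR+Nef vs SHR and 3 in SHR+Nef vs WKY, and most points lie within 1 log2 unit of 0.

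Between SHR+Nef and SHR, the question was whether neferine shifts the most abundant transcripts in the hypertensive strain. Of the 100, 0 passed the test (limma; also 0 without its trend and robust options), where 0.00687% of 29095 transcripts tested did. An unadjusted p under 0.05 was found for 10 of the 100, 1 higher and 9 lower, and for 6.16% of all tested. The share over all was not split by direction. Of the lower ones, those of ranks 44, 53, 71, 86 and 91 had SHR+Nef medians of 474, 181, 476, 302 and 492. These lay under the 578 of the last of the 100, and the 1 higher, of rank 54, had an SHR median of 43.4. Their place among the 100 rests on groups where they are higher. The split is thus a description and supports nothing about the 100 as a class. The groups did not overlap for 0 of the 100, against 1.08% of all tested, and without SHR replicate 4 again for 0, against 1.68%. The median absolute difference was 0.25 log2 units, and over all transcripts tested it was also 0.25. The difference was below 0 for 80 of the 100, with a median of -0.22, against 0.06 over all tested. Without SHR replicate 4 it was below 0 for 78, with a median of -0.09 against 0.0015 over all tested. With median scaling it was below 0 for 86, with a median of -0.34 against -0.01. Scaling to the sum of the other transcripts gave 72, with a median of -0.12 against 0.12. Quantile normalization, which largely removes a shared shift, gave 45, with a median of 0.04 against -0.004.

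The smallest p belonged to 2 assembled isoforms. MERGE.26552.1, ranked 86, stood at 442, 1126, 1185, 966 and 603 in SHR replicates 1 to 5. In SHR+Nef replicates 1, 2, 4, 5 and 6 it stood at 302, 168, 231, 383 and 533. Only SHR replicate 1 lay within the SHR+Nef range. The log2 difference was -1.43 (standard error 0.38), which did not pass (limma, adjusted p = 0.65). Its SHR+Nef median, 302, lay under the 578 of the last of the 100, so a lower value there is the direction its selection favours. In WKY it was at 347 to 971, over most of the range of both.

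The other was MERGE.3652.1, ranked 54, with a log2 difference of 4.23 and a standard error of 1.42 that did not pass (limma, adjusted p = 0.75). Its SHR median was 43.4, so its place among the 100 rests on WKY and SHR+Nef, and its selection favours this direction. It and MERGE.3652.3, ranked 20, are the 2 listed isoforms of 1 assembled locus and were the most variable of the 100, with SDs within groups of 2.44 and 5.56 log2 units. MERGE.3652.1 was at 2297, 18.6, 954, 1101 and 77.4 in WKY replicates 1 to 5 and at 22.2, 103.03, 20.5, 68.9 and 43.4 in SHR replicates 1 to 5. In SHR+Nef replicates 1, 2, 4, 5 and 6 it was at 1897, 1716, 1960, 22.0 and 2518. It was high in 4 of 5 SHR+Nef libraries and 3 of 5 WKY libraries and low in all 5 SHR libraries, and SHR+Nef replicate 5 fell inside the SHR range.

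MERGE.3652.3 was listed at 0 in WKY replicate 4, SHR replicates 2 and 4 and SHR+Nef replicate 1, the only zeros among the 100. It stood at 445, 4353, 3469 and 6305 in WKY replicates 1, 2, 3 and 5, at 4169, 4441 and 3762 in SHR replicates 1, 3 and 5, and at 159, 462, 5061 and 856 in SHR+Nef replicates 2, 4, 5 and 6. In the 6 libraries with the highest values of this isoform, 3762 or more, the other was at 18.6 to 77.4, but in WKY replicate 3, next at 3469, it was at 954. The sum of both ran from 68.9 in SHR replicate 4 to 6382 in WKY replicate 5, so the total was not constant. By group median MERGE.3652.1 ranked 56th in WKY, 1596th in SHR and 26th in SHR+Nef, the widest rank difference of the 100. An exact 0 beside such high values can be a failed estimate, and the sources used here do not say how the authors shared reads between isoforms.

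**Figure D4:**
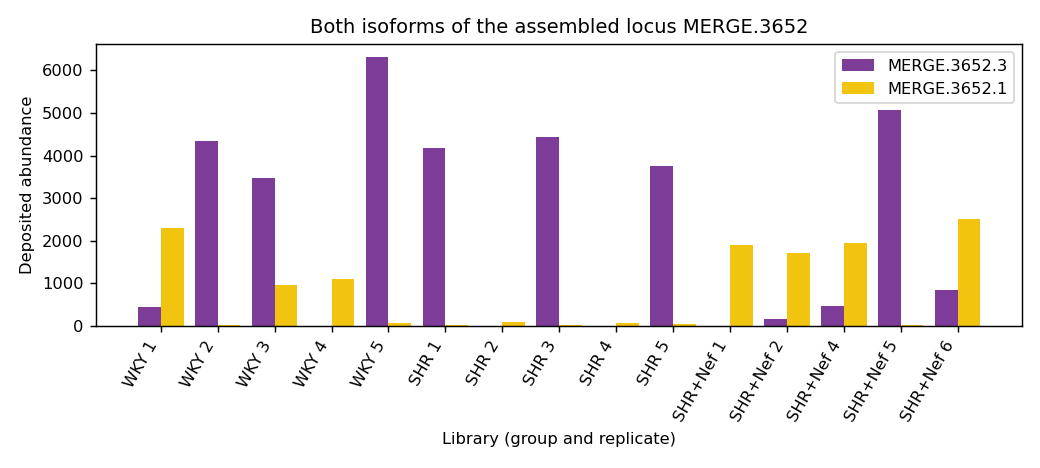
Deposited abundance of MERGE.3652.3 (purple) and MERGE.3652.1 (yellow) in each of the 15 libraries. The 6 libraries highest in MERGE.3652.3 have MERGE.3652.1 at or below 77.4, WKY replicate 3 has both (3469 and 954), and both are at or below 103.03 in SHR replicates 2 and 4.

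Between SHR+Nef and WKY, which differ in both strain and treatment, the question was how the treated hypertensive rats stood against the normotensive strain. Of the 100, 3 passed, 2 higher and 1 lower in SHR+Nef (limma), where 1.3% of 29095 transcripts tested passed, 0.818% higher and 0.478% lower. The split was 1 higher and 0 lower with median scaling, where 208 higher and 148 lower were called over all transcripts. It was 2 higher and 2 lower when libraries were scaled to the sum of the other transcripts, against 238 and 148 over all. Without SHR replicate 4, which enters this comparison through the shared spread, 3 were higher and 2 lower, while calls over all transcripts went from 377 to 538. The comparison shares the WKY libraries with that of the 2 strains.

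ENSRNOT00000024253 stood at 1126, 961, 1139, 1038 and 1163 in SHR+Nef replicates 1, 2, 4, 5 and 6, above all 5 WKY libraries. With a WKY median of 556, under the 578 of the last of the 100, its selection favours this direction. The log2 difference from WKY was 0.93 (standard error 0.17; limma, adjusted p = 0.012). The call ended with median scaling (limma, adjusted p = 0.12) and with the replicate block (limma, adjusted p = 0.097). ENSRNOT00000020357 stood at 1836, 1664, 2015, 2201 and 2234 in the same libraries, again above all of WKY. Its log2 difference was 0.77 (standard error 0.17; limma, adjusted p = 0.045), and the call ended in 17 of 25 alternatives, including without any 1 of the WKY or SHR+Nef libraries and without SHR replicate 1 or 5. Against SHR, the 2 transcripts differed by -0.21 and -0.03 log2 units and did not pass (limma, adjusted p from 0.79 to 0.97).

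ENSRNOT00000090745 was the 1 lower transcript. It is among the 100 only through its WKY level: its median ranked 23rd in WKY, 108th in SHR and 368th in SHR+Nef, and only the WKY median, 2175, lay above the last of the 100. A lower value in SHR+Nef is thus the direction its selection favours. It was at 1139, 2175, 3769, 2546 and 903 in WKY replicates 1 to 5 and at 181, 28.0, 318, 64.3 and 879 in SHR+Nef replicates 1, 2, 4, 5 and 6. The groups did not overlap, but SHR+Nef replicate 6 lay just under WKY replicate 5. The log2 difference was -3.55 (standard error 0.78; limma, adjusted p = 0.037), and the call ended in 13 of 25 alternatives, including the removal of WKY replicate 1, 2, 3 or 4, of SHR replicate 2, 3 or 5, and of SHR+Nef replicate 1, 2, 4 or 5. With the same pattern, ENSRNOT00000090422 differed by -3.40 (limma, adjusted p = 0.051) and the transcript of rank 12 by -3.16 (limma, adjusted p = 0.073), and neither passed. With the replicate number as a block all 3 of the set passed, together with the transcript of rank 44, and none that was higher did. Number 6 occurs only in SHR+Nef, so this block also takes SHR+Nef replicate 6, the highest of its group for this set, out of the difference. When only that library was left out, the same 3 passed, and so did that of rank 56, which was higher.

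The groups did not overlap for 5 of the 100, 4 higher and 1 lower, against 4.2% of all tested, 2.68% higher and 1.51% lower. The 2 beyond the called ones were those of rank 67 and rank 69, higher in SHR+Nef by 0.65 and 0.79 log2 units without passing (limma, adjusted p of 0.22 and 0.062). The transcripts of ranks 56 and 69 had WKY medians of 556 and 493, under the 578 of the last of the 100. Their place, like that of the 1 lower transcript, rests on groups where they are higher. The count is thus a description and supports nothing about the 100 as a class. The median difference over the 100 was -0.07, against 0.03 over all tested. It was -0.12 with median scaling, against -0.001, and -0.08 with scaling to the sum of the other transcripts, against 0.03. With quantile normalization, which largely removes a shared shift, it was 0.07, against -0.015. The median absolute difference over the 100 was 0.16 log2 units against 0.22 over all transcripts tested.

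**Figure D5:**
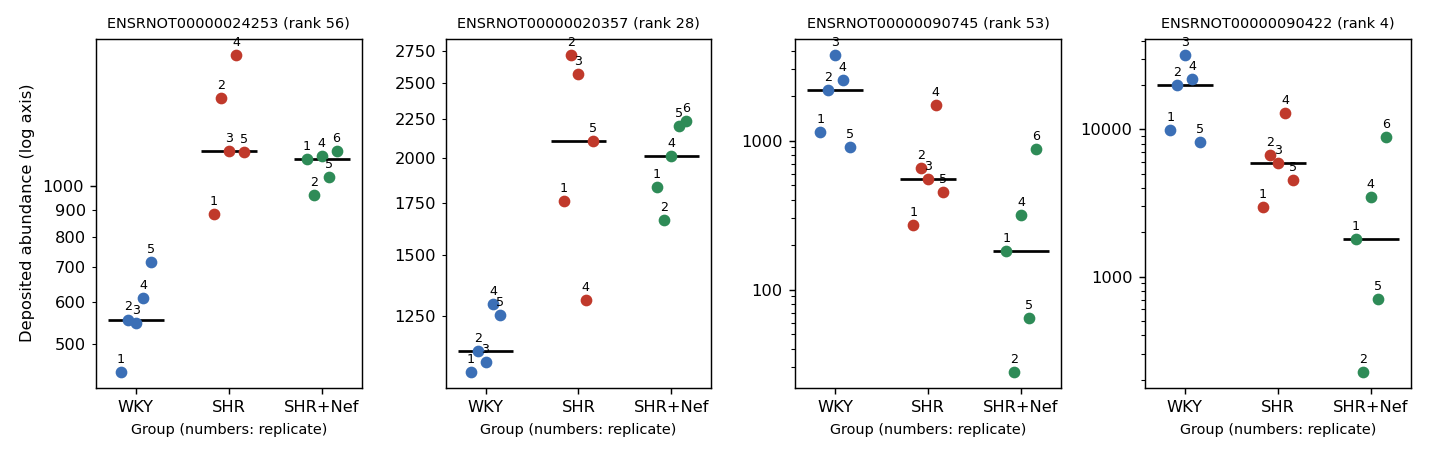
Deposited abundance, on log axes that differ between panels, of 4 transcripts in each library, with the replicate number above each point and the group median as a line. ENSRNOT00000024253 and ENSRNOT00000020357 lie higher in all SHR and SHR+Nef libraries than in WKY, and ENSRNOT00000090745 and ENSRNOT00000090422 run from high in WKY to 28.0 and 226 in SHR+Nef replicate 2.

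Among the other assembled isoforms, 6 of the 11 were the single listed isoform of their locus. MERGE.7851.1, MERGE.26552.1 and MERGE.198.2 each held 71.1% to 100% of the abundance of a locus with 2 listed isoforms. The second isoform of MERGE.7851 was listed at 0 in WKY replicates 1, 2 and 4, stood at 35.1 and 81.4 in WKY replicates 3 and 5, and was at 174 to 337 in the 10 libraries of the hypertensive strain. It is not among the 100 and was singled out after its values were seen. The isoform that is among them, MERGE.7851.1, was at 881 to 1763 in WKY, 574 to 1165 in SHR and, in SHR+Nef, 708 to 1169.9, ranges that overlapped.

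The median SD within groups was 0.38 log2 units over the 100, 0.46 over the first 10, 0.34 over the 900 ranked next and 0.50 over all transcripts that passed the filter. Leaving out SHR replicate 4, these were 0.28, 0.43, 0.27 and 0.43. Of the 100, 29 had an SD under 0.3, 23 varied less than 2-fold over all 15 libraries, and 7 had an SD over 1. The 7 were the 2 isoforms of MERGE.3652, the 3 transcripts of the set with ENSRNOT00000090422, and those of ranks 44 and 75.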

How the data were processed

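The libraries were made from total RNA of rat abdominal aorta, extracted with TRIzol and depleted of ribosomal RNA, per the labels' protocols. The authors deposited 1 table of transcript abundance per library, a normalized signal that is never negative. The sources used here give neither its scale nor the aligner or quantifier, so the depth in reads is unknown and no counting interval can be given. The submitters' processing notes name limma, with no role, and the mouse build mm10, while the IDs are those of rat. Of the 100 IDs, 0 matched the RefSeq gene table, so no names or sequences are printed, and the gene and marker lists planned could not be used.

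Tables were joined by ID. Values were tested as log2(value + 1) with limma 3.58.1 (R 4.3.3, trend and robust options), all 3 groups in 1 model with 12 residual degrees of freedom, on transcripts that reached 1 in 5 libraries or more. Adjusted p-values are Benjamini-Hochberg over all transcripts tested, with a threshold of 0.05, and fold changes on this scale understate changes at low levels. The procedure was tested on simulated data. Figures used Python 3.11.15 and matplotlib 3.10.9.

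The text names the 10 most abundant transcripts, up to 2 called transcripts per direction whose groups do not overlap (or, with none called, the 2 with the smallest p), the neighbours of the threshold, the 2 most and 2 least variable, and the 2 with the widest rank difference. Others are named after their values were seen. The transcripts, lists and tests were chosen with earlier results of these data known. Alternatives were another pseudocount, filter, scaling, weighting and design, a replicate block, and leaving out each library. Pattern sets at other limits and overlap counts without SHR replicate 4 were added after seeing the data.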

Additional observations from a re-analysis of the deposited data

Results flagged for a closer look

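In 90 sets of 5 values from 1 group, 11 held a library far from the other 4 by Dixon's criterion. For 1 set of normal values chance gives about 5%. The 90 sets come from the same 15 libraries, and some are sums over transcripts found in others. They are thus not independent, and the 11 cannot be set against the 5%. SHR replicate 4 accounted for 6 of the 11. Its summed abundance was 746274, and 78 of the 100 transcripts were in its own first 100. Its values of ENSRNOT00000049683 (24918), ENSRNOT00000043693 (16111), ENSRNOT00000090745 (1739) and ENSRNOT00000029791 (1851) were far above those of the other SHR libraries.

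WKY replicate 1 accounted for 2, since the first 10 transcripts held 26.6% of its sum and the set of 10 held 24.9%. WKY replicate 2 stood apart for ENSRNOT00000029791, at 974. SHR+Nef replicate 2 was low for the set of 19, which held 4.17% of its sum. SHR+Nef replicate 5 stood apart for MERGE.3652.3, at 5061.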

How the results depend on the processing

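Over 25 alternatives per comparison, the transcripts called between SHR and WKY numbered 3 as reported and 1 with limma without trend and robust options, with the replicate block and with only the 2 groups compared. Over all transcripts these settings called 446, 468, 233 and 298. Leaving out 1 library gave 1 to 3, with 1 without WKY replicate 1, 3, 4 or 5 or SHR replicate 3. These named removals called 225 to 393 over all transcripts. Between SHR+Nef and WKY the count was 3 as reported, 7 with array quality weights, 1 with median scaling and 4, all lower, with the replicate block. Over all transcripts these settings called 377, 680, 356 and 164 (110 higher and 54 lower). Leaving out 1 library gave 1 to 5, with 5 without SHR replicate 4 and 1 without WKY replicate 1, 3 or 4, SHR replicate 5 or SHR+Nef replicate 1, 2, 4 or 5. Over all transcripts the removal of SHR replicate 4 called 538, and the other named removals called 247 to 360. Between SHR+Nef and SHR it was 0 in all 25. The causes were not tested. Transcripts whose SHR and WKY values do not overlap numbered 2, and 5 without SHR replicate 4. Of 200 alternative values for named differences, 0 changed direction and 61 crossed to the other side of the threshold. Many of the 200 could not change direction. Other filters, other limma options, only the 2 groups compared, or leaving out a library of the third group do not alter the difference itself. Same-numbered libraries correlated at -0.067 to 0.091 in their deviations from the group means and matched best in 4 of 13 cases. The labels do not say whether the number pairs animals, and these few correlations cannot settle it. The largest pattern set held 42 to 63 transcripts at limits of 0.3 and 0.5. The unknown read depth limits what can be said of single values.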
